A study of Mus musculus with 6 samples.

Results

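The genes described here are the Wnt ligands, their Frizzled and LRP receptors, the secreted Wnt antagonists, and the proteins that hold back or carry the beta-catenin signal, in RNA of the mouse mast cell line MC/9. They were chosen by gene symbol alone: every row named Wnt, Fzd, Dkk or Sfrp with a number of the family, together with Lrp5, Lrp6, Sost, Axin1, Axin2, Ctnnb1, Apc, Lef1, Tcf7, Tcf7l1 and Tcf7l2. The rule found 48 of 49568 genes in the count table, made up of 19 Wnt ligands, 10 Frizzled receptors, 2 LRP co-receptors, 9 antagonists, 4 genes for beta-catenin and its destruction complex and 4 TCF/LEF factors.

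RNA was sequenced from 3 libraries of MC/9 cells treated with rPTH at 10 nM for 24 h and from 3 control libraries labelled as given no treatment. Per the design text, 7F2 cells, a mouse osteoblast line, were plated first and the MC/9 cells were moved in a day later, and the mast cells were taken for RNA after the treatment. Both are established lines, so no animal stands behind a replicate, and nothing in the labels says that the libraries of a group came from separate cultures: p-values then measure only the spread between these libraries, which may be technical. The labels do not spell out rPTH, read here as a parathyroid hormone preparation, and do not say whether the control mast cells had shared a dish with osteoblasts. The treatment protocol entered for the control libraries is the same rPTH text as for the treated ones, so the control group rests on the sample titles, source names and treatment labels.

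Wnt proteins are secreted, lipid-bearing ligands that bind a Frizzled receptor and an LRP co-receptor at the cell surface. In their absence a complex built on axin and APC marks beta-catenin for destruction; when a Wnt binds, that complex is held at the membrane and beta-catenin reaches the nucleus, where it works with TCF/LEF factors. In bone this pathway drives the formation of osteoblasts, the antagonists Sost and Dkk1 restrain it, and parathyroid hormone is known to lower Sost in bone cells.

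Library totals were 30623648 to 33577977 counts with rPTH and 22282095 to 24993606 counts in controls. Levels are given as CPM, counts per 1000000 of the library total, with each total scaled by its TMM factor, which evens out libraries that differ in a few abundant genes. Of 20 mast cell markers, 18 were high enough to test, all but Mcpt1 and Mcpt4. So were 31 of 40 osteoblast and stromal markers, so the libraries held transcripts of both kinds. The plain CPM, without that factor, of all 20 summed to 7166, 9345 and 9059 in rPTH 1, 2 and 3. In control 1, 2 and 3 the same markers summed to 8357, 8879 and 8925, so rPTH 1 had the smallest sum. Log2 fold changes, rPTH minus control, were below 0 for 12 of the 18, against 9766 of all 16696 tested genes. On the scaled levels, rPTH libraries lay below all controls for 5 of the 18 (8.39% of tested genes) and above for 0 (8.44%). Osteoblast and stromal markers were present in every library. They summed to 4973, 3190 and 3391 plain CPM in rPTH 1, 2 and 3, against 2252, 2556 and 2477 in control 1, 2 and 3, with 0 of the 40 markers at 0 in all libraries and 9 of them too low to test, namely Ibsp, Bglap, Bglap2, Dmp1 and Mepe of late osteoblasts and osteocytes, and Dcn, Lum, Thy1 and Fap. The macrophage markers summed to 21.6 to 26.3 plain CPM with rPTH and 27.0 to 29.6 in controls, and T and B lymphocyte markers to at most 1.03 plain CPM in any library. Because the RNA is a bulk extract, more cells of a type and more RNA per cell cannot be told apart.

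Control 1 stood apart in a way that touched several of the genes. Among tested protein-coding genes, its level divided by the mean of the other 5 libraries had a median of 1.93 for summed exon lengths under 2000 bases, 1.22 from 2000 to 5000, 0.841 from 5000 to 8000 and 0.605 above that. Of the 5 members with summed exons above 8000 bases, Apc was at 0.218 of the other libraries, Lrp6 at 0.453 and Lrp5 at 0.793. Lef1 and Tcf7l2 were at 1.15 and 1.27. Their longest transcripts have 3656 and 3715 bases, against 8893 for Lrp5, 9368 for Lrp6 and 12811 for Apc. Other members with short longest transcripts were low in control 1: Ctnnb1 (3623 bases) was at 0.741 and Wnt10b (2709 bases) at 0.599. The part of transcript length in these ratios was not tested. Control 1 was the lowest of the 6 libraries for 10 of 27 tested members, against 33.2% of all tested genes.

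**Figure D1:**
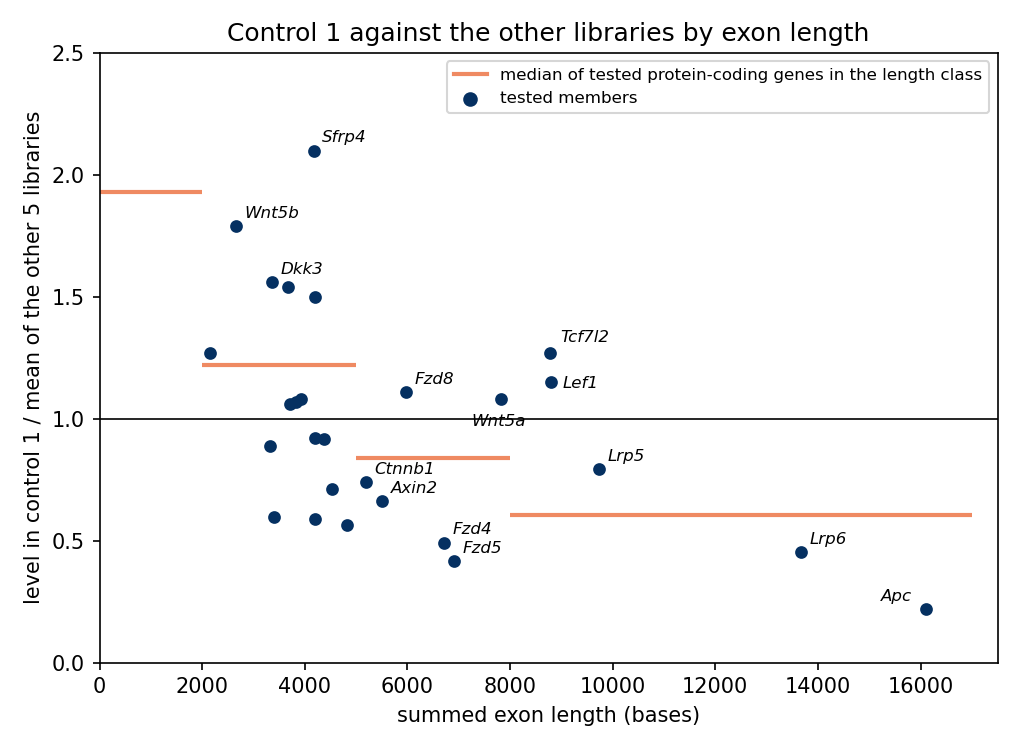
Level in control 1 divided by the mean level in the other 5 libraries (vertical axis) against summed exon length in bases (horizontal axis) for the 27 tested members; orange lines are medians over tested protein-coding genes of the same length class. Apc, the longest tested member, is lowest at 0.218, and Sfrp4 is highest at 2.1.

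Promoter windows, taken from RefSeq on GRCm38.p6 as 250 bases before to 50 after a gene's start, were on hand for 32 of the 48 members. They were searched on both strands for the letters CTTTGA and CTTTGT, which TCF/LEF factors can bind, and for TGACGTCA, the full site of the cAMP-responsive factor CREB. CTTTGA or CTTTGT lay in a window of 11 of these 32 members, or in 11 of their 41 windows, against 31.2% of all 32851 windows. TGACGTCA lay in 0 of the 41 windows, against 1.79% of all windows. The windows of Fzd1 and Fzd7 are shown because all 3 rPTH libraries exceeded all controls for both receptors (values below), and that of Axin2 because this gene is widely read as a target of beta-catenin; capitals mark CTTTGA or CTTTGT on either strand.
Fzd1, chr5:4758167-4758466, minus strand: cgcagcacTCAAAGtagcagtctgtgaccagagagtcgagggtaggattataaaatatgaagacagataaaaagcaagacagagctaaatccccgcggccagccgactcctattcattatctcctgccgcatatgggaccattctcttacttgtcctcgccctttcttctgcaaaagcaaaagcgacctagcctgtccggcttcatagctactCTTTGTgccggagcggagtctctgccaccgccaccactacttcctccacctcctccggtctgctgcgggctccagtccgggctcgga
Fzd7, chr1:59481897-59482196, plus strand: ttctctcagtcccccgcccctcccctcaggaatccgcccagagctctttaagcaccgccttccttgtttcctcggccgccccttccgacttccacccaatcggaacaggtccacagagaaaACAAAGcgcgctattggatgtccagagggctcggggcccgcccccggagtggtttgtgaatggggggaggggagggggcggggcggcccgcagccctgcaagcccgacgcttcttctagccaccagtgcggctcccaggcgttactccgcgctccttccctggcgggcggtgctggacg
Axin2, chr11:108920099-108920398, plus strand: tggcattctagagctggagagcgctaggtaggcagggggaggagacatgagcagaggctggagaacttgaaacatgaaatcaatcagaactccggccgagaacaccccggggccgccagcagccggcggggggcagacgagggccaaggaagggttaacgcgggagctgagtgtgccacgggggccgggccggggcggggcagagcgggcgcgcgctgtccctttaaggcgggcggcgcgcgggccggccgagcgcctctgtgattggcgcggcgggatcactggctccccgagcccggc
Fzd1 held CTTTGA on the opposite strand, from 242 bases before the start, and CTTTGT from 37 bases before it, and Fzd7 held CTTTGT on the opposite strand from 129 bases before the start. The Axin2 window held neither; this says nothing of sites outside it. Starts here are those of RefSeq, and the Fzd1 and Fzd7 windows lie wholly upstream of the GENCODE M21 gene spans given below. A match is a run of letters and was not tested as a binding site.

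The first question was which parts of the pathway these cultures transcribed at all. Levels per kilobase of summed exon length, averaged over the 6 libraries, were highest for Ctnnb1, which encodes beta-catenin, at 56.3 CPM per kb. The antagonist Sfrp2 followed at 34.0, the scaffold Axin1 at 28.0, the co-receptor Lrp6 at 7.84 and the antagonist Sfrp1 at 7.13 CPM per kb. The most abundant Frizzled was Fzd7 at 5.56 CPM per kb, and Apc was close to it at 5.09. The highest Wnt ligand was Wnt5b at 1.27 CPM per kb, placed 12 among the 27 tested members. Ctnnb1, Axin1, Apc, Lrp6, Fzd7, Sfrp1 and Sfrp2 were thus above every ligand, whereas Lrp5 at 1.11 and Tcf7l1 at 1.14 CPM per kb were below Wnt5b. With the length of the longest transcript in place of summed exons, the 10 highest members were the same 10. On that length Tcf7l1 at 1.47 CPM per kb lay above Wnt5b at 1.42.

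Of the 48 members, 27 were high enough to test with edgeR and 21 had counts but too few; 0 were at 0 in every library. The untested members were 13 ligands, 3 Frizzleds, 4 antagonists and Tcf7. None of the untested ligands passed 10 counts in a library: Wnt11 came highest with 32 counts over all 6, and Wnt7a and Wnt8a had 3 each. Among the untested receptors Fzd3 had 22 counts in all, Fzd9 19 and Fzd10 6.

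The bone antagonist Sost, which encodes sclerostin, had 1, 0 and 0 counts in rPTH 1, 2 and 3, against 1, 0 and 0 in control 1, 2 and 3. Dkk1, which blocks LRP co-receptors, had 1, 0 and 0 counts with rPTH, against 0, 0 and 2 in controls. A count of 0 allows up to 3 counts, or 0.0893 to 0.098 plain CPM in the rPTH libraries and 0.12 to 0.135 plain CPM in controls. Neither gene passed 2 counts in any library, and no difference between rPTH and control was detectable for them at this depth. Such limits take in the error of counting alone, as PCR copies of a molecule were not told apart.

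**Figure D2:**
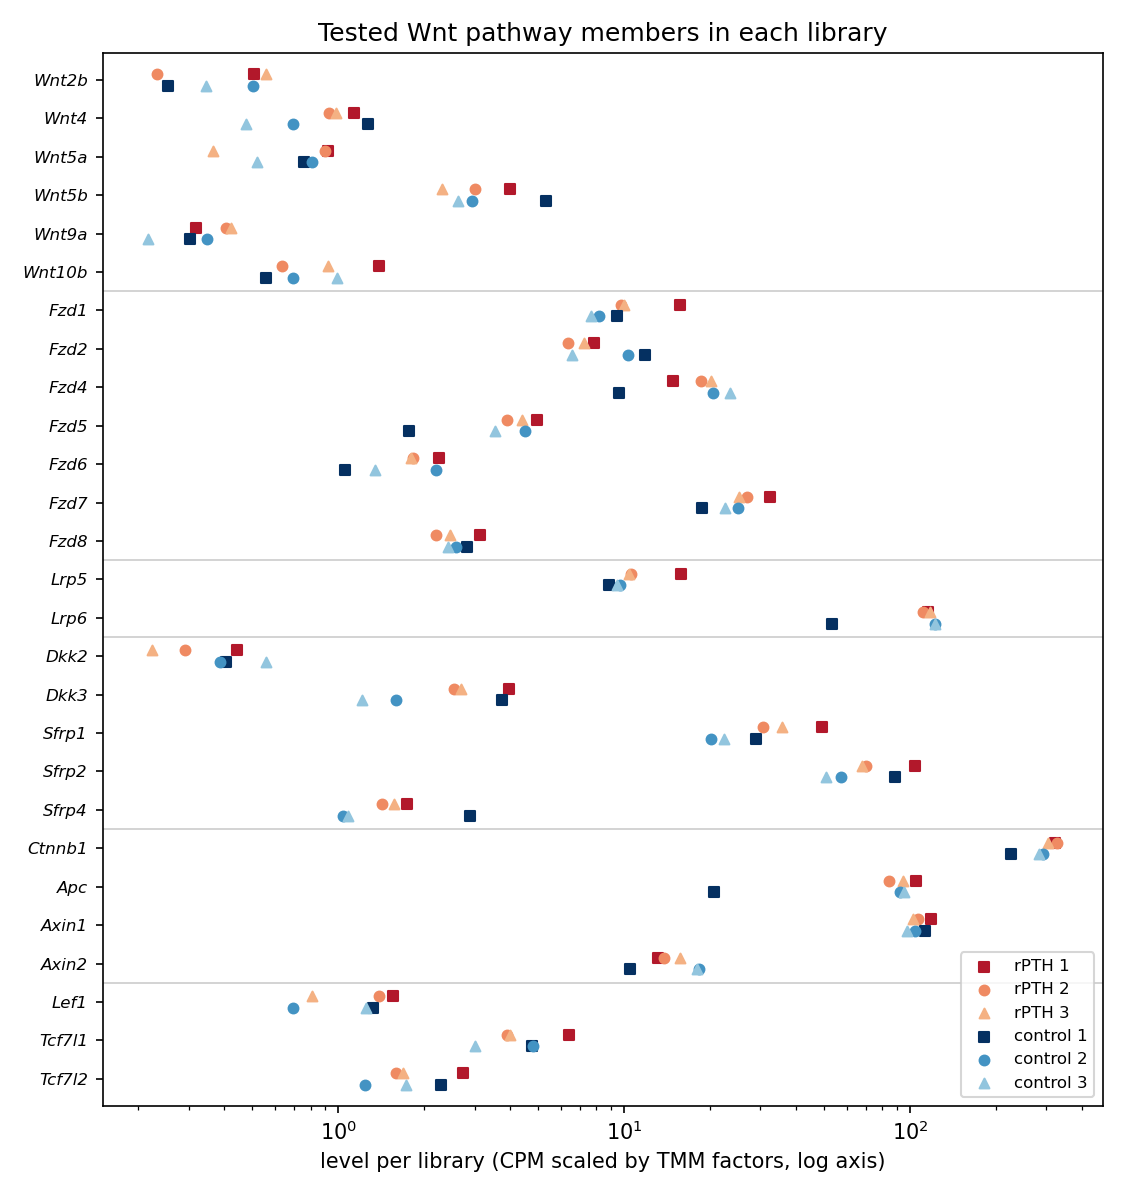
Level of the 27 tested members in each library, in CPM scaled by TMM factors on a log axis, with rPTH libraries drawn above control libraries in each row and gray lines between roles. Ctnnb1 is highest at 303 to 327 CPM with rPTH and 226 to 293 CPM in controls, and the tested Wnt ligands lie below 6 CPM in all libraries.

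The next question was whether the pathway's transcripts differed between rPTH and control cells. No member passed: in edgeR's quasi-likelihood test with Benjamini-Hochberg adjustment over all 16696 tested genes, 0 of 27 members had an adjusted p under 0.05, against 0% of all tested genes, and the members' adjusted p ran from 0.619 to 0.999. DESeq2 gave 0 members at an adjusted p under 0.05 (background 0.0299%), as did limma-voom (background 0%). At an unadjusted p under 0.05 in edgeR, 1 member, Sfrp1, was higher with rPTH (background 1.98%) and 0 were lower (background 5.89%). DESeq2 gave 2 members at that level, Sfrp1 and Fzd1 (background 11.0%), and limma-voom gave 1, Sfrp1 (background 4.73%). The 3 rPTH libraries lay above the 3 controls for 5 members of 27 (background 8.44%) and below them for 0 (background 8.39%). The log2 fold change, rPTH minus control, was above 0 for 20 of 27 members with a median of 0.22, against 41.5% of all tested genes and a median of -0.09 over them. Without rPTH 1 it was above 0 for 17 of 27 with a median of 0.10, without control 1 for 22 with a median of 0.14, and without both for 16 with a median of 0.05. Among protein-coding genes fitted alone the members' median was 0.22 and that of all genes 0.00093.

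**Figure D3:**
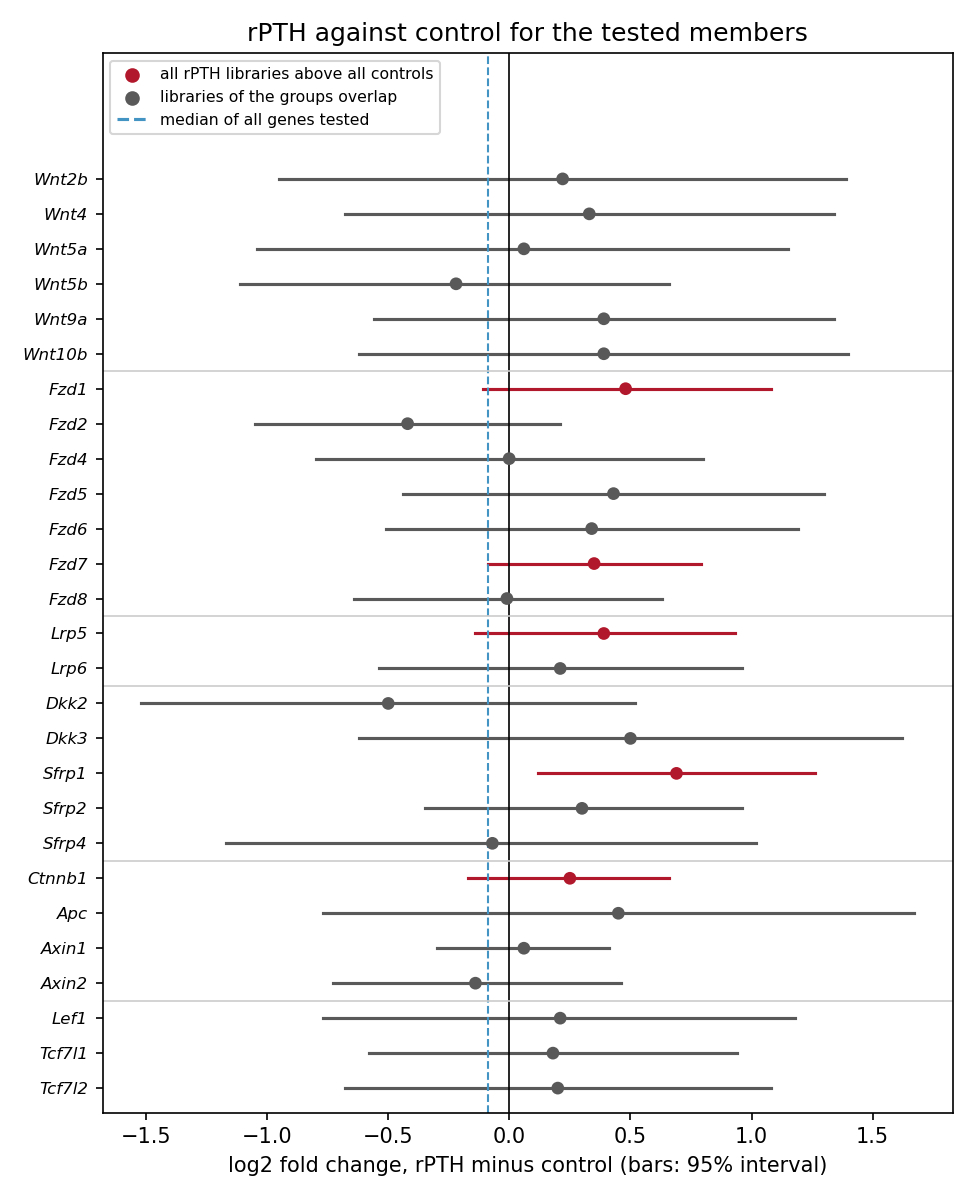
Log2 fold change of each tested member, rPTH minus control, from edgeR, with bars for the 95% interval; red marks the 5 members whose rPTH libraries all exceeded all controls, and the dashed line is the median of all tested genes at -0.09. The interval of Sfrp1 runs from 0.12 to 1.26, and the intervals of the other 26 members include 0.

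The largest log2 fold change of the 27 tested members belonged to an antagonist. Sfrp1, a secreted decoy that resembles the Wnt-binding part of a Frizzled, had 49.3, 30.6 and 35.7 CPM in rPTH 1, 2 and 3, against 29.0, 20.2 and 22.4 CPM in control 1, 2 and 3. All 3 rPTH libraries lay above all controls, though rPTH 2 was only just above control 1. The means were 38.5 ± 9.66 CPM with rPTH and 23.8 ± 4.59 CPM in controls (SD, n = 3 each). In log2 terms rPTH minus control was 0.69 ± 0.24 (SE; edgeR adjusted p = 0.619). Without rPTH 1 the log2 fold change was 0.47, and without control 1 it was 0.84. In the authors' deposited table Sfrp1 had a log2 fold change of 0.71 and an adjusted p of 0.154, the smallest of the members there. Sfrp1 spans chromosome 8 from 23411502 to 23449632 (GENCODE M21, GRCm38, as for all genes below).

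Sfrp2, a close relative of Sfrp1, was the most abundant antagonist. It had 104, 70.3 and 67.9 CPM in rPTH 1, 2 and 3, against 88.7, 57.4 and 50.7 CPM in control 1, 2 and 3. The groups overlapped, because control 1 exceeded rPTH 2 and 3. Its log2 fold change was 0.30 ± 0.28 (edgeR adjusted p = 0.679). It was 0.08 without rPTH 1 and 0.57 without control 1. Sfrp2 lies on chromosome 3 from 83766321 to 83774316 and overlaps an antisense gene, Gm26771.

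Dkk3, a divergent member of the Dickkopf family, had 3.96, 2.55 and 2.69 CPM in rPTH 1, 2 and 3, against 3.75, 1.59 and 1.21 CPM in control 1, 2 and 3. Only control 1 reached the rPTH range. Its log2 fold change of 0.50 ± 0.47 (edgeR adjusted p = 0.686) was 0.27 without rPTH 1, 0.30 without control 2, 0.33 without control 3 and 1.12 without control 1. Sfrp4 had 1.74, 1.42 and 1.57 CPM with rPTH, against 2.89, 1.04 and 1.08 CPM in control 1, 2 and 3. Here control 1 was the highest of the 6 libraries, and the log2 fold change of -0.07 ± 0.46 (edgeR adjusted p = 0.951) turned to 0.56 without it. Dkk2 had only 8 to 14 counts per library and a log2 fold change of -0.50 ± 0.43 (edgeR adjusted p = 0.664), from -0.80 without rPTH 1 to -0.23 without control 3.

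Among the receptors, Fzd1 and Fzd7 had groups that did not overlap. Fzd7 had 32.4, 27.0 and 25.3 CPM in rPTH 1, 2 and 3, against 18.8, 25.1 and 22.5 CPM in control 1, 2 and 3. rPTH 3 and control 2 lay side by side, so the separation was narrow. For Fzd7 the log2 fold change was 0.35 ± 0.19 (edgeR adjusted p = 0.628), and 0.23 without control 1. Fzd1 had 15.7, 9.73 and 9.97 CPM in rPTH 1, 2 and 3, against 9.47, 8.2 and 7.68 CPM in control 1, 2 and 3. rPTH 1 stood well above the other 5 libraries, and the log2 fold change of 0.48 ± 0.25 (edgeR adjusted p = 0.628) was 0.22 without it. Fzd7 is on chromosome 1 from 59482424 to 59486955 and Fzd1 on chromosome 5 from 4753839 to 4758035.

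The other 5 tested Frizzleds had overlapping groups. Fzd4, which also serves the ligand norrin, had 14.8, 18.6 and 20.1 CPM in rPTH 1, 2 and 3, against 9.57, 20.4 and 23.4 CPM in control 1, 2 and 3. The controls alone spanned the whole rPTH range, and the 95% interval of the log2 fold change ran from -0.80 to 0.80. Fzd2 leaned the other way, with 7.86, 6.37 and 7.23 CPM in rPTH 1, 2 and 3, against 11.8, 10.3 and 6.6 CPM in control 1, 2 and 3. Its log2 fold change was -0.42 ± 0.27 (edgeR adjusted p = 0.629), and -0.25 without control 1, while control 3 lay within the rPTH range. Fzd5 (log2 fold change 0.43), Fzd6 (0.34) and Fzd8 (-0.01) had means of 1.54 to 4.42 CPM in either group, with edgeR adjusted p from 0.664 to 0.991. Without control 1 the log2 fold changes of Fzd5 and Fzd6 were both 0.13, and without control 2 they were 0.73 for Fzd5 and 0.69 for Fzd6.

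The co-receptors Lrp5 and Lrp6 bind Wnt beside a Frizzled; loss of Lrp5 is known to lower bone mass. Lrp5 had 15.8, 10.6 and 10.4 CPM in rPTH 1, 2 and 3, against 8.86, 9.67 and 9.45 CPM in control 1, 2 and 3. All 3 rPTH libraries were above all controls, with rPTH 1 far above the rest. This gave a log2 fold change of 0.39 ± 0.23 (edgeR adjusted p = 0.628), or 0.17 without rPTH 1. Lrp6 had 116, 111 and 118 CPM in rPTH 1, 2 and 3, against 53.4, 122 and 123 CPM in control 1, 2 and 3. Apart from control 1 the 5 libraries lay close together, with control 2 and 3 the highest of all. For Lrp6 the log2 fold change was 0.21 ± 0.32 (edgeR adjusted p = 0.787), and -0.10 without control 1. Lrp5 is on chromosome 19 from 3584828 to 3686564 and Lrp6 on chromosome 6 from 134446476 to 134566965.

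Beta-catenin and its destruction complex were well covered. Ctnnb1 had 322, 327 and 303 CPM in rPTH 1, 2 and 3, against 226, 293 and 284 CPM in control 1, 2 and 3. The groups did not overlap, and the means were 317 ± 12.6 CPM with rPTH and 268 ± 36.0 CPM in controls (SD, n = 3 each). Its log2 fold change was 0.25 ± 0.18 (edgeR adjusted p = 0.635), and 0.13 without control 1. Ctnnb1, on chromosome 9 from 120929216 to 120960507, overlaps Ulk4 on the other strand.

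Apc, a core protein of the destruction complex, had 105, 84.7 and 94.6 CPM in rPTH 1, 2 and 3, against 20.6, 92.3 and 95.1 CPM in control 1, 2 and 3. Control 1 had 406 counts where the other libraries had 2204 to 3379. The log2 fold change was 0.45 ± 0.52 (edgeR adjusted p = 0.729) with control 1 and 0.0037 without it. Axin1, the scaffold of the complex, had 119, 107 and 102 CPM in rPTH 1, 2 and 3, against 113, 104 and 97.6 CPM in control 1, 2 and 3. Its 6 libraries thus lay close together, with overlapping groups and a log2 fold change of 0.06 ± 0.15 (95% interval -0.30 to 0.41; edgeR adjusted p = 0.871).

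Axin2, a feedback inhibitor that beta-catenin itself switches on, had 13.1, 13.8 and 15.7 CPM in rPTH 1, 2 and 3, against 10.5, 18.3 and 18.0 CPM in control 1, 2 and 3. The rPTH libraries lay between control 1 and the other 2 controls. Its log2 fold change was -0.14 ± 0.25 (95% interval -0.73 to 0.46; edgeR adjusted p = 0.819). Without control 1 it was -0.37 ± 0.13 (edgeR adjusted p = 0.4). A fit added once the values were known, which left out replicate 1 of both groups, gave -0.30 ± 0.12 (edgeR adjusted p = 0.73). Axin2 spans chromosome 11 from 108920349 to 108950783 and overlaps an antisense gene, Gm11670.

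The TCF/LEF factors, which carry beta-catenin to DNA, were low. Lef1 had 1.55, 1.39 and 0.812 CPM in rPTH 1, 2 and 3, against 1.32, 0.696 and 1.25 CPM in control 1, 2 and 3. Tcf7l1, which mostly acts as a repressor, had 6.44, 3.88 and 3.98 CPM with rPTH, against 4.76, 4.8 and 3.02 CPM in controls. Tcf7l2 had 2.73, 1.59 and 1.68 CPM with rPTH, against 2.28, 1.24 and 1.73 CPM in controls. rPTH 1 was the highest library for all 3 factors, the groups overlapped for each, and the log2 fold changes were 0.21 (Lef1), 0.18 (Tcf7l1) and 0.20 (Tcf7l2), with edgeR adjusted p from 0.811 to 0.834. Tcf7 had 7 to 23 counts per library and was not tested.

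The tested ligands were Wnt2b, Wnt4, Wnt5a, Wnt5b, Wnt9a and Wnt10b. Wnt5b, which acts largely without beta-catenin, had 3.99, 3.01 and 2.3 CPM in rPTH 1, 2 and 3, against 5.32, 2.94 and 2.63 CPM in control 1, 2 and 3. The groups overlapped, and control 1 was the highest. The log2 fold change was -0.22 ± 0.37 (edgeR adjusted p = 0.803), and 0.14 without control 1; its counts may include reads of Fbxl14, which lies on the other strand.

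Wnt10b, a ligand known to favour osteoblasts over adipocytes, had 1.39, 0.637 and 0.924 CPM in rPTH 1, 2 and 3, against 0.557, 0.696 and 0.992 CPM in control 1, 2 and 3. Wnt4 had 1.14, 0.927 and 0.98 CPM with rPTH, against 1.27, 0.696 and 0.475 CPM in controls. The groups of both overlapped, and the log2 fold changes were 0.39 ± 0.43 for Wnt10b and 0.33 ± 0.43 for Wnt4. With one library left out, Wnt10b ran from 0.06 (without rPTH 1) to 0.72 (without control 3), and Wnt4 from 0.17 (without control 3) to 0.77 (without control 1). Wnt9a had 0.317, 0.406 and 0.42 CPM with rPTH, against 0.304, 0.348 and 0.216 CPM in controls, from 5 to 15 counts per library. rPTH 1 was the highest library for Wnt10b but not for Wnt4 or Wnt9a. Wnt9a had a log2 fold change of 0.39, Wnt2b of 0.22 and Wnt5a of 0.06. Across the 6 ligands the edgeR adjusted p ran from 0.699 to 0.961 and no group was separate from the other, at counts that leave wide intervals: that of Wnt4 ran from -0.68 to 1.34. Summed over all 19 ligands the level was 9.13, 7.13 and 6.11 CPM in rPTH 1, 2 and 3, against 9.11, 6.5 and 6.86 CPM in control 1, 2 and 3.

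Many members were highest where the stromal markers were. Library rPTH 1 had the largest stromal sum and the smallest mast cell sum. It was also the highest of the 6 libraries for 16 of 27 members, against 20.2% of all tested genes. Among 31 tested stromal markers 28 were above 0 in log2 fold change (median 0.54), and 26 peaked in rPTH 1. Of the 18 tested mast cell markers 0 peaked in rPTH 1. On the TMM scale the stromal markers summed to 4828, 3046 and 3189 CPM in rPTH 1, 2 and 3, against 2780, 2471 and 2381 CPM in control 1, 2 and 3. Divided by that sum, an alternative chosen after seeing the data, Fzd1 had 3.26, 3.2 and 3.13 CPM per 1000 CPM of stromal markers in rPTH 1, 2 and 3, against 3.41, 3.32 and 3.23 in control 1, 2 and 3. The 6 libraries, whose Fzd1 levels ran from 7.68 to 15.7 CPM, lay close together on this scale. Fzd1 was the most even of the 27 members here, so it does not stand for the rest. Fzd7 and Ctnnb1, whose groups were also separate in CPM, spread more, and their groups overlapped. Fzd7 ran from 6.71 in rPTH 1 to 10.2 in control 2. Ctnnb1 ran from 66.7 in rPTH 1 to 119.1 in control 3, while its CPM ran from 226 in control 1 to 327 in rPTH 2.

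Sfrp1 on the same scale had 10.2, 10.0 and 11.2 CPM per 1000 CPM of stromal markers with rPTH, against 10.4, 8.17 and 9.39 in controls, and its groups overlapped. Lrp5 had 3.28, 3.47 and 3.25 with rPTH, against 3.19, 3.91 and 3.97 in controls, and Sfrp2 had 21.6, 23.1 and 21.3, against 31.9, 23.2 and 21.3. On this scale 0 of the 27 members had all rPTH libraries above all controls (background 0.27%), and 5 had all of them below (background 47.0%), namely Axin1, Fzd2, Fzd8, Wnt5b and Dkk2. The divisor was itself higher in every rPTH library than in every control, so a gene of even level falls below on this scale by construction. Axin1, whose CPM hardly differed between the groups, had 24.6, 35.1 and 32.1 with rPTH, against 40.6, 42.0 and 41.0 in controls. The part of the stromal RNA in any difference between rPTH and control was not tested, and whether a given transcript came from mast cells or osteoblasts cannot be told apart in these libraries.

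**Figure D4:**
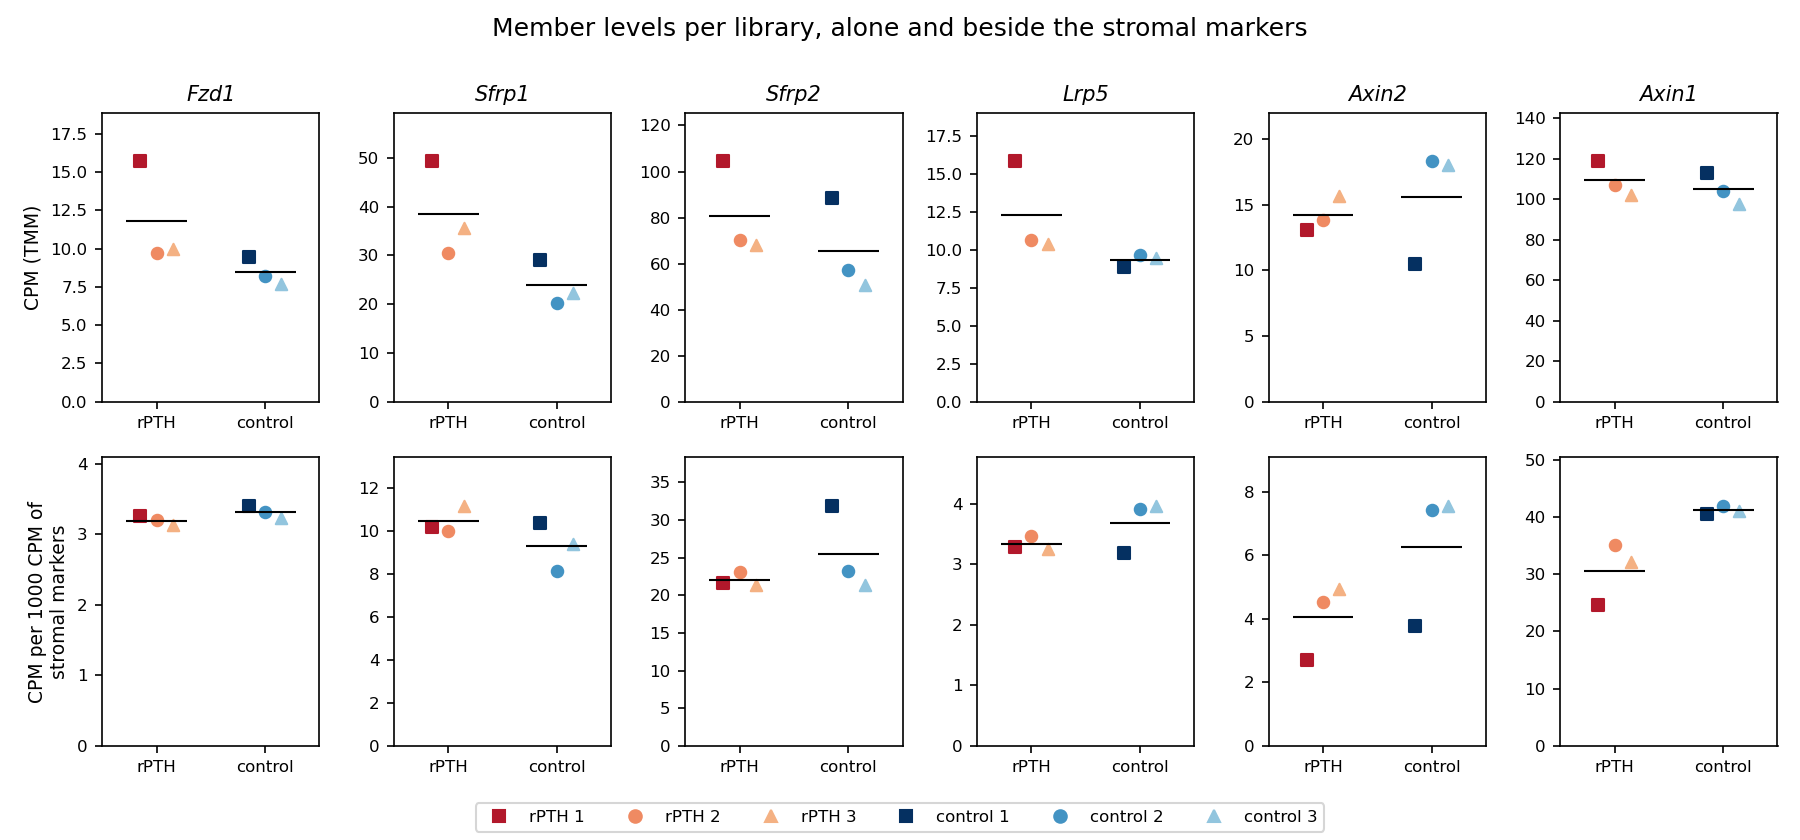
Levels of 6 members in each library as CPM scaled by TMM factors (upper row) and as CPM per 1000 CPM of summed stromal markers (lower row); black lines are group means and each axis starts at 0. Fzd1 runs from 7.68 to 15.7 in the upper row and from 3.13 to 3.41 in the lower, while Axin1 is even in the upper row and lower with rPTH in the lower.

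The rest of the pathway was described from 5 lists of secretion factors, alternative receptors, signal transducers, nuclear partners and reported targets. Of their 92 genes, 75 were tested. Among these, 51 had a log2 fold change above 0 and 24 below, with a median of 0.17. Over all tested genes 41.5% were above 0 with a median of -0.09, which is also the background for each list below. Among protein-coding genes fitted alone the median of all genes was 0.00093, so an excess over this background depends on the genes it takes in. In edgeR 0 had an adjusted p under 0.05 (background 0%), 5 were higher at an unadjusted p under 0.05 (background 1.98%) and 0 lower (background 5.89%). The rPTH libraries lay above all controls for 14 of the 75 and below them for 3, against 8.44% and 8.39% of all tested genes.

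Among secretion factors and extracellular regulators, 10 of 12 tested genes were above 0. Rspo2, an R-spondin that boosts Wnt signals, had 3.39, 2.14 and 3.64 CPM in rPTH 1, 2 and 3, against 1.32, 1.59 and 1.68 CPM in control 1, 2 and 3. Its receptor Lgr4 had 11.5, 7.73 and 7.06 CPM with rPTH, against 5.11, 5.61 and 5.95 CPM in controls. Neither pair of groups overlapped, and the log2 fold changes were 1.00 ± 0.32 for Rspo2 and 0.66 ± 0.26 for Lgr4 (edgeR adjusted p = 0.619 each). Per 1000 CPM of stromal markers the groups of both genes overlapped, that of Rspo2 narrowly, with ratios of the rPTH to the control mean of 1.4 for Rspo2 and 1.08 for Lgr4.

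Of the alternative receptors and planar polarity genes, 10 of 13 were above 0. Prickle2, a planar polarity protein, had 5.17, 3.13 and 2.97 CPM in rPTH 1, 2 and 3, against 1.11, 1.51 and 2.46 CPM in control 1, 2 and 3 (log2 fold change 1.14 ± 0.40; edgeR adjusted p = 0.619). These groups did not overlap; per 1000 CPM of stromal markers they did, with a ratio of means of 1.48. Celsr1, a cadherin of the same system, had only 7 to 15 counts per library, with 0.285, 0.348 and 0.196 CPM with rPTH, against 0.557, 0.387 and 0.647 CPM in controls (log2 fold change -0.93 ± 0.43; edgeR adjusted p = 0.619).

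The cytoplasmic transducers had 13 of 21 and the nuclear partners 11 of 17 tested genes above 0, with medians of 0.20 and 0.15. The kinase Csnk1g2 had 110.0, 112 and 111 CPM in rPTH 1, 2 and 3, against 193, 128 and 114 CPM in control 1, 2 and 3 (log2 fold change -0.39 ± 0.22; edgeR adjusted p = 0.628). Nkd2, an inhibitor of dishevelled, had 2.25, 1.85 and 1.9 CPM with rPTH, against 1.97, 0.928 and 1.21 CPM in controls (0.55 ± 0.36; edgeR adjusted p = 0.629). The groups of Csnk1g2 did not overlap, with control 3 close to the rPTH libraries and control 1 far above them, while those of Nkd2 overlapped through control 1. Of the nuclear partners, the corepressor Aes had 244, 280.0 and 262 CPM with rPTH, against 641, 291 and 276 CPM in control 1, 2 and 3 (log2 fold change -0.62 ± 0.35; edgeR adjusted p = 0.628). Tle4, a related corepressor, had 4.79, 2.67 and 2.69 CPM with rPTH, against 1.87, 1.97 and 2.85 CPM in controls (0.60 ± 0.35; edgeR adjusted p = 0.628). The groups overlapped for both, and control 1 stood far above the rest for Aes.

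Of the genes reported elsewhere as beta-catenin targets, 8 of 14 were above 0 (background 41.5%). Their median log2 fold change was 0.03, against -0.09 over all tested genes and 0.00093 over protein-coding genes fitted alone. The rPTH libraries lay above all controls for 4 of the 14 (background 8.44%) and below them for 1 (background 8.39%). Ccnd1, which encodes cyclin D1, had 101, 72.6 and 68.9 CPM in rPTH 1, 2 and 3, against 52.2, 57.1 and 55.9 CPM in control 1, 2 and 3. The adhesion receptor Cd44 had 165, 118 and 102 CPM with rPTH, against 84.5, 83.4 and 84.4 CPM in controls. All rPTH libraries of both genes lay above all controls, and rPTH 1 was the highest. Levels per 1000 CPM of stromal markers were not computed for Ccnd1 and Cd44, so their separation was not read beside the stromal sums. The log2 fold changes were 0.55 ± 0.19 for Ccnd1 and 0.61 ± 0.21 for Cd44 (edgeR adjusted p = 0.619 each). The targets Sp5, Nkd1, Lgr5 and Notum, which are read as more specific to the pathway, were too low to test. Axin2, described above, had overlapping groups and a log2 fold change of -0.14.

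Of the 24 members with an adjusted p in the authors' deposited table, 0 were under 0.05, where 11 of 15559 genes were (background 0.0707%). At an unadjusted p under 0.05 the authors' deposited table held 2 members, Sfrp1 and Fzd1, both higher with rPTH (background 5.09% of 38144 genes). There, in the authors' deposited table, Fzd1 had a log2 fold change of 0.50.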

How the data were processed

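Per the labels' protocols, RNA was extracted with Trizol and libraries were made with an Illumina TruSeq kit. The whole-number counts per gene were deposited by the authors; per the submitters' processing notes, which give no roles, the software was STAR 2.5.2b, Trimmomatic 0.36, featureCounts, Subread 1.5.0p3, R 3.3.0 and DESeq2 1.12.4, and both GRCm38.p5 and mm9 are named as builds. The annotation and strand setting of the counting are not given in the sources used here; 18 of 48 members overlap another gene by span, and their counts may share reads. The authors' deposited comparison table gives a mean signal, log2 fold changes, a Wald score and p-values, and is quoted as theirs.

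The counts were tested with edgeR 4.0.16 in R 4.3.3 (filterByExpr with a minimum count of 10, TMM factors, robust quasi-likelihood test, Benjamini-Hochberg over 16696 genes, threshold 0.05). The procedure was also run on simulated counts, which held no length trend like that of control 1 and so cannot show how it fares with one. Errors are SD over 3 libraries or SE of the fit, and intervals are at 95%. GENCODE M21 matched 47313 of 49568 symbols and gave coordinates, gene types and exon lengths. Members, lists and tests were chosen with earlier results of these data known. Values per library are given for members at an unadjusted p under 0.05, with groups that do not overlap, or among the 4 highest per length of their role, for 7 well-known genes of the pathway, and for the 2 genes of smallest p in each other list. Alternatives were other scaling and filters, DESeq2 1.42.0, limma-voom (limma 3.58.1), a replicate block, protein-coding genes only, removal of length and GC trends, and leaving out libraries.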

Additional observations from a re-analysis of the deposited data

How the results depend on the processing

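The count of members at an adjusted p under 0.05 was 0 in all 16 alternatives to the edgeR fit, and the smallest adjusted p of any member was 0.186, for Sfrp1 in DESeq2. Over all genes DESeq2 called 5 where edgeR called 0. At an unadjusted p under 0.05 edgeR gave 1314 genes; without the low-count filter it gave 2377, with DESeq2 1838, with limma-voom 790, with protein-coding genes only 621, and with length and GC trends removed 759. Leaving out one library gave 272 (without rPTH 1) to 2165 (without control 1).

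Same-numbered rPTH and control libraries had correlations of -0.131, -0.323 and 0.142 between their deviations from the group means, so the numbers were not taken to pair the libraries. A fit with the replicate number as a block gave 525 genes at an unadjusted p under 0.05 and 0 members at an adjusted p under 0.05. In that fit Wnt5a had a log2 fold change of -0.01, Fzd4 0.08 and Sfrp4 0.07, each of the other sign than in the unblocked fit.

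Of the 27 tested members 13 kept their sign in every alternative that gave a value, Sfrp1, Fzd1, Fzd7, Lrp5 and Ctnnb1 among them. The other log2 fold changes that turned sign, for members all far from the threshold, were as follows. RLE factors gave 0.04 for Fzd4, 0.05 for Fzd8 and 0.01 for Sfrp4, and DESeq2 gave 0.04, 0.05 and 0.01 for the same genes. Library totals in place of TMM gave 0.07, 0.12 and 0.12 for these genes, and moved the median of all genes to 0.04 and that of the members to 0.35. No low-count filter gave 0.09, 0.12 and 0.10. A filter of 1 CPM in 3 libraries gave 0.0015 for Fzd4 and 0.0046 for Fzd8, and protein-coding genes alone gave 0.01 for Fzd8. limma-voom gave -0.05 for Wnt5a, 0.07 for Fzd4 and 0.11 for Sfrp4. With length and GC trends removed Wnt5a had -0.18, Wnt5b 0.09, Lrp6 -0.09, Lef1 -0.10 and Tcf7l2 -0.11. The causes were not tested.

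Leaving out libraries, the pair numbered 1 included (chosen after seeing the data), gave ranges across 0 of -0.10 to 0.52 for Wnt2b, -0.14 to 0.38 for Wnt5a, -0.45 to 0.14 for Wnt5b, -0.11 to 0.72 for Wnt10b, -0.31 to 0.31 for Fzd4, -0.16 to 0.10 for Fzd8, -0.10 to 0.45 for Lrp6, -0.33 to 0.56 for Sfrp4, -0.07 to 0.78 for Apc, -0.0036 to 0.11 for Axin1, -0.37 to 0.05 for Axin2, -0.04 to 0.44 for Lef1, -0.09 to 0.31 for Tcf7l1 and -0.09 to 0.42 for Tcf7l2. The members' median was 0.22 with all libraries, 0.10 without rPTH 1, 0.14 without control 1 and 0.05 without both. Without control 1, Sfrp1 (0.84), Sfrp2 (0.57) and Dkk3 (1.12) were higher and Axin2 (-0.37) lower with rPTH at an unadjusted p under 0.05, each with an edgeR adjusted p of 0.4; without rPTH 1, or without control 2, 0 members were. Over all alternatives 0 to 4 members were at that level.

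Depth left 21 members untested; the 13 ligands among them had at most 10 counts in a library.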
